A study of Mus musculus with 3 samples.

Results

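The genes described here are 10 noncoding snoRNA host genes of the mouse, chosen by symbol: Gas5, Snhg1, Snhg3, Snhg5, Snhg6, Snhg8, Snhg12, Snhg15, Snhg17 and Snhg20. They are 10 of the 55536 annotated genes in the gene tables, all 10 were found, and the rule uses no measured value. Total RNA was sequenced from F121-9, a hybrid mouse embryonic stem cell line with Cast and 129 parents, in 3 libraries. The labels call these biological replicates 1, 2 and 3, at passage 14 and from 400 ng of RNA each, with spike-in RNAs added. They form 1 group of 1 line, with no treatment or control, so no comparison between conditions can be made. Nothing in the labels says that the libraries came from separate cultures, and a spread between them may be technical.

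Small nucleolar RNAs (snoRNAs) guide the chemical modification of ribosomal and other RNAs. Box C/D snoRNAs direct 2′-O-methylation and box H/ACA snoRNAs direct pseudouridylation, while the related small Cajal body RNAs (scaRNAs) act on spliceosomal RNAs. In mammals most of them lie in introns: the host gene is transcribed and spliced, and the excised intron is trimmed down to the snoRNA held by its proteins. In a noncoding host the spliced exons are a separate product, which for hosts such as Gas5 is known to be degraded by nonsense-mediated decay when translated.

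The annotation places 34 snoRNA or scaRNA entries at 32 distinct loci inside the 10 hosts on the same strand. All 34 lie in introns of the host's largest isoform, and their lengths run from 60 to 205 nt. Gas5 holds 10 entries at 9 loci, Snhg1 holds 8, and Snhg12 holds 5 at 4 loci. Snhg17 holds 3 entries, Snhg3 and Snhg5 hold 2 each, and Snhg6, Snhg8, Snhg15 and Snhg20 hold 1 each. Duplicate entries cover Snord80 in Gas5 and Snora16a in Snhg12. The Snhg20 entry, Gm26083, is the scaRNA of the set.

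**Figure D1:**
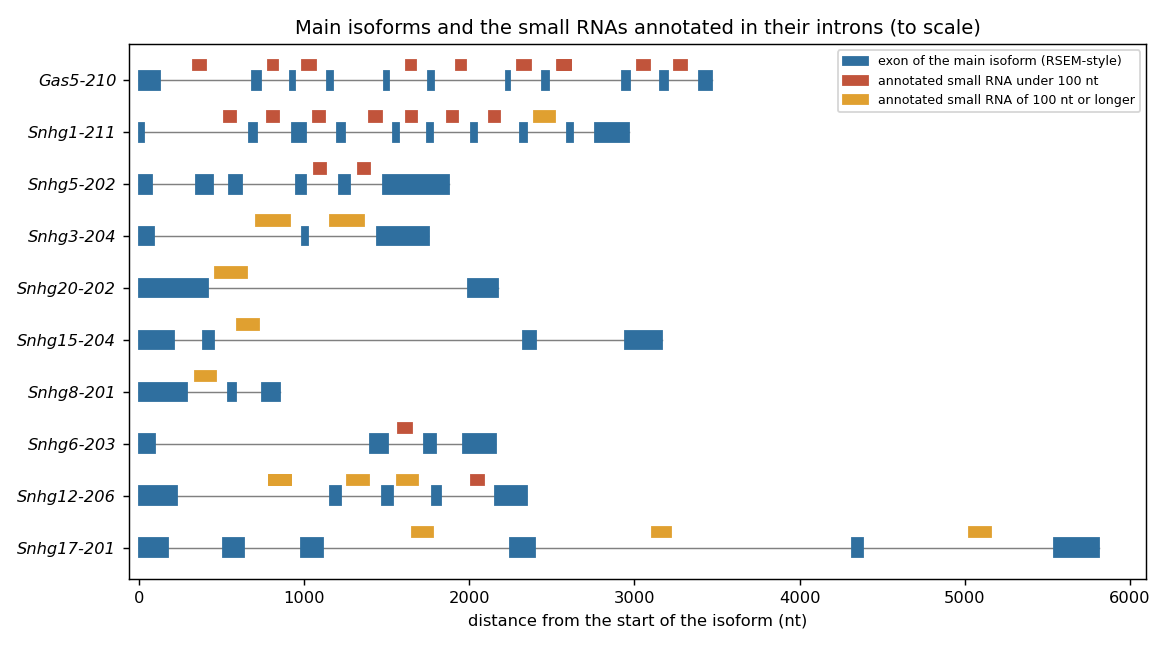
The largest isoform of each host by RSEM-style share, drawn to scale from its start (x axis, nt), with exons as blue boxes and annotated small RNAs above the line, in red under 100 nt and in yellow at 100 nt or longer. All 34 entries fall between exons, with 10 in Gas5 and 8 in Snhg1.

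The host content differed by length class. Of the 21 entries under 100 nt, 17 had the letters TGATGA, a box C, within their first 21 nt together with the letters CTGA, a box D, within their last 15 nt, read on the strand of the RNA. None of the 13 entries of 100 nt or longer had both, and in 8 of these 13 the trinucleotide ACA of the H/ACA class stood 3 nt from the end, as it did in 1 of the 21 shorter ones. Those 8 include both entries of Snora16a. They leave out the 3 entries of Snhg17, whose last letters are ACA. Also left out are Snora44 and Snord22, whose last ACA stood 34 and 104 nt from the end. Snord22 had the box D letters but not those of box C. The sequences below are from the GENCODE M21 transcripts (GRCm38) and show 1 box C/D snoRNA from each of 3 hosts, with box C and box D in capitals.

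Snord47 (Gas5, chr1:161038082-161038158, plus strand): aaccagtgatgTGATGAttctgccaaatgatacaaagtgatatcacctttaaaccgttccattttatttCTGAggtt

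Snord87 (Snhg6, chr1:9942463-9942549, minus strand): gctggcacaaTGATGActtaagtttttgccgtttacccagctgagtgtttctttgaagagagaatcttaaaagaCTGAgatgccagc

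Snord99 (Snhg12, chr4:132310691-132310764, plus strand): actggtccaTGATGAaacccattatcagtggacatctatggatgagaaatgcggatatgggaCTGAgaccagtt

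A pair of H/ACA snoRNAs, Snora73b and Snora73a, occupies both introns of the largest Snhg3 isoform. Each is 205 nt long, and they differ at 7 bases, shown in capitals, so that 96.6% of positions are identical. They are shown because one of them had the highest reads of all the entries here and because so few bases tell them apart.

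Snora73b (Snhg3, chr4:132352322-132352526, minus strand): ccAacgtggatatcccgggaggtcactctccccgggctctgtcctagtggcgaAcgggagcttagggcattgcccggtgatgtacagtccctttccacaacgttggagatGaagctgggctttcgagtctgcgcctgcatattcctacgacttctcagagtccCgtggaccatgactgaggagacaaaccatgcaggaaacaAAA

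Snora73a (Snhg3, chr4:132352775-132352979, minus strand): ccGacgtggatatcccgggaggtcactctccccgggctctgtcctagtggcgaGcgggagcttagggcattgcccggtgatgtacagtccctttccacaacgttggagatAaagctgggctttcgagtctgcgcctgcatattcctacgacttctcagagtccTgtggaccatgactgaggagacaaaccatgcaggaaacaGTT

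Snhg5 likewise carries a near-identical pair, the box C/D snoRNAs Snord50a and Snord50b, 72 nt each. A single base, in capitals, separates them, and 98.6% of positions are identical.

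Snord50a (Snhg5, chr9:88521529-88521600, minus strand): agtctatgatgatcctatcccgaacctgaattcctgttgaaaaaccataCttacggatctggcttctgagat

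Snord50b (Snhg5, chr9:88521797-88521868, minus strand): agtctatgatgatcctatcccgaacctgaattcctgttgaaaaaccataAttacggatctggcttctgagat

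The distance of the snoRNAs from the next exon was read from the annotation. From the end of the entry to the 3′ splice site of the largest isoform, the 21 shorter entries had a median of 75 nt and a range of 65 to 314 nt, and 16 of them lay within 60 to 90 nt. The 13 longer entries had a median of 237 nt and a range of 74 to 1595 nt, with 6 of 13 in that window. Snora9 in Snhg15 was the farthest, at 1595 nt, followed by the scaRNA of Snhg20 at 1340 nt. To the nearest such site of any annotated isoform the medians were 73 nt for the shorter and 81 nt for the longer entries. The numbers within 60 to 90 nt stayed at 16 of 21 and 6 of 13. The lower median of the longer entries came from Gm26003 in Snhg17, which went from 1096 to 19 nt at a site used by 1 isoform. These distances describe the annotation and were not tested.

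**Figure D2:**
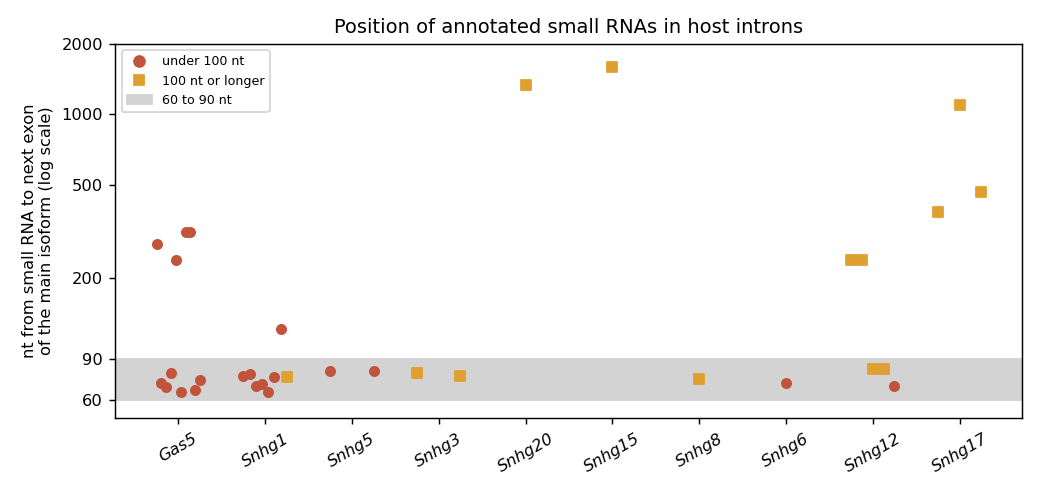
Distance in nt (log scale) from the end of each annotated small RNA to the next exon of the host's largest isoform, 1 point per entry, hosts on the x axis, red circles under 100 nt and yellow squares at 100 nt or longer. Of the 34 entries 22 lie in the grey band of 60 to 90 nt. All those of Snhg15, Snhg17 and Snhg20 lie far above it, and some of Gas5, Snhg1 and Snhg12 also lie above it.

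For each library a gene table and a transcript table in the layout that RSEM writes (RSEM-style here) and a transcript table in the layout of kallisto (kallisto-style) were used. Levels are in TPM, transcripts scaled for length to a fixed library total, a per-length scale on which genes can be compared, and a gene is called expressed at 1 TPM or more in all 3 libraries. The RSEM-style tables held 9765384 to 10610782 estimated counts per library and the kallisto-style ones held 17717726 to 19156106. Replicate 1 stood apart: over genes of at least 20 counts in a pair of libraries, the mean chi-square of counts per gene was 4.42 against replicate 2 and 4.30 against replicate 3, and 1.36 between replicates 2 and 3. Its ratio to the other libraries rose with transcript length (Spearman rho 0.46 with replicate 2 and 0.40 with replicate 3, across 7576 genes, which are not independent replicates). For the 10 hosts the same chi-square averaged 0.958, 0.76 and 1.60 in the pairs 1 and 2, 1 and 3, and 2 and 3. All 6 pluripotent markers were expressed at an RSEM-style median of 352 TPM, with Nanog at 505, Pou5f1 at 495 and Zfp42 at 426 TPM, and Esrrb lowest at 106 TPM. Of 8 fibroblast markers, for feeder cells, 2 were expressed kallisto-style, Thy1 at 1.66 and Pdgfrb at 1.19 TPM, and 1 RSEM-style, Pdgfrb at 1.53 TPM, with Thy1 at 1.06 and Col1a1 at 0.61 TPM. Col3a1 and Postn were at 0 in both sets, and Lum was at 0.0284 TPM kallisto-style and 0 RSEM-style. In such bulk RNA, few cells of a type and little RNA per cell cannot be told apart.

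All 10 snoRNA hosts were expressed in all 3 libraries, from 526 TPM for Gas5 down to 14.6 TPM for Snhg17 in the RSEM-style tables. Together they had 1142 ± 49.6 TPM (SD, n = 3), which was 0.114% of all TPM and 5.42 ± 0.211% of the TPM of the 741 expressed long noncoding genes. Gas5 alone made up 46.1 ± 0.748% of the sum. The hosts' median was 71.1 TPM, beside 4.78 TPM for the expressed long noncoding genes and 17.4 TPM for all 13113 expressed genes. Among 10155 long noncoding genes the hosts ranked from 15 (Gas5) to 279 (Snhg17) in the kallisto-style tables and from 8 to 162 in the RSEM-style ones. This class was set by annotated gene type alone, and its highest gene had 2317 TPM RSEM-style. The share and the ranks depend on what the annotation puts in it.

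Of the hosts whose named snoRNAs are box C/D, Gas5 (ENSMUSG00000053332.13, chr1:161034422-161038539, plus strand) was the highest. Gas5, named for its rise in growth-arrested mouse fibroblasts, had 510.5, 560.2 and 507 TPM in replicates 1, 2 and 3, a mean of 526 ± 29.8 TPM (SD, n = 3). It rested on 1654, 1600 and 1509 counts and was 3.35 ± 0.0834 times Snhg1 and 36.4 ± 4.29 times Snhg17 within a library. No other host came within its range in any library. The interval deposited with each TPM, of a level the sources do not state, ended at 480.3, 521 and 476 TPM, so Gas5 lay above it in all 3 libraries. Snhg5 lay above its own interval in 2 libraries and Snhg1 in 1. Antisense to its start lies Zbtb37, overlapping by 428 nt and at 0.98 ± 0.246 TPM.

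Snhg1 (ENSMUSG00000108414.1, chr19:8723475-8726443, plus strand) hosts Snord22, a box C/D snoRNA known to act in ribosomal RNA processing in frog oocytes, and 7 shorter entries. It had 148, 169.8 and 154 TPM, a mean of 157 ± 11.2 TPM, from 614, 621 and 583 counts. In the RSEM-style tables replicate 2 was the highest library for Gas5 and Snhg1, and also for Snhg3, Snhg12, Snhg15 and Snhg17. In the kallisto-style tables it was the highest for Snhg1 but not for Gas5. Snhg5 (ENSMUSG00000097195.9, chr9:88521050-88522929, minus strand), whose human counterpart is known from a lymphoma translocation, had 103, 102 and 96.5 TPM, a mean of 100.5 ± 3.48 TPM. Its coefficient of variation, 3.46%, was the lowest of the 10 in the RSEM-style tables. Snhg6 (ENSMUSG00000098234.7, chr1:9941959-9944118, minus strand), host of Snord87, had 42.15, 38.35 and 39.0 TPM, a mean of 39.8 ± 2.03 TPM, from 105, 82 and 87 counts. The antisense gene Mcmdc2 overlaps Snhg6 by 127 nt and had 2.19 ± 0.515 TPM.

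Among the hosts of box H/ACA snoRNAs, Snhg3 (ENSMUSG00000085241.7, chr4:132348014-132353686, minus strand) was the highest. It had 97.1, 98.9 and 90.01 TPM, a mean of 95.3 ± 4.70 TPM, from 182, 170.3 and 160.5 estimated counts. This level is uncertain: Snhg3 shares 5592 nt of its span with Rcc1, a protein-coding gene on the same strand at 55.6 ± 5.19 TPM, and 1611 nt with the antisense Gm17300 at 24.0 ± 3.73 TPM, and its counts were whole numbers, to within 0.005, in 0 of 3 libraries. Whether counting used strand is not given in the sources used here. Snhg15 (ENSMUSG00000085156.7, chr11:6525591-6528760, minus strand), host of Snora9, had 62.2, 68.2 and 61.5 TPM, a mean of 64.0 ± 3.72 TPM. Snhg8 (ENSMUSG00000104960.1, chr3:123507552-123508404, minus strand), host of Snora24 and the shortest of the 10 at 853 nt, had 44.6, 38.6 and 43.9 TPM, a mean of 42.4 ± 3.25 TPM. With 90, 75 and 84 counts Snhg8 was among the 3 hosts of fewest reads, together with Snhg6 and Snhg12.

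The remaining hosts carry mixed or other content. Snhg20 (ENSMUSG00000086859.4, chr11:117076008-117078955, plus strand), which holds the scaRNA Gm26083, had 82.7, 78.3 and 73.5 TPM, a mean of 78.2 ± 4.57 TPM; its counts too were whole in 0 of 3 libraries. Snhg12 (ENSMUSG00000086290.9, chr4:132308623-132311024, plus strand) holds the H/ACA snoRNAs Snora16a, Snora44 and Snora61 and the box C/D snoRNA Snord99. It had 21.5, 25.8 and 23.8 TPM, a mean of 23.7 ± 2.13 TPM, from 81, 84 and 75 counts. Snhg12 lies 36989 nt from Snhg3, on the other strand of chromosome 4, and Snhg3 was the higher of these neighbours in every library. Snhg17 (ENSMUSG00000085385.7, chr2:158353700-158361580, minus strand), the longest of the 10 at 7881 nt, holds 3 entries of 113 to 132 nt with no snoRNA name, all ending in ACA. Across the 3 libraries Snhg17 was the lowest of the 10 hosts. It had 14.6, 17.0 and 12.3 TPM, a mean of 14.6 ± 2.335 TPM. Its coefficient of variation, 16.0%, was the largest of the 10 in the RSEM-style tables, and kallisto-style it had 13.5 ± 0.694 TPM. The RSEM-style counts of Snhg17, 193, 156 and 163, did not follow its TPM: replicate 1 was the highest in counts and replicate 2 in TPM.

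In order of mean TPM the hosts ran Gas5, Snhg1, Snhg5, Snhg3, Snhg20, Snhg15, Snhg8, Snhg6, Snhg12 and Snhg17. The ranges of 2 neighbouring pairs overlapped, Snhg5 with Snhg3 and Snhg8 with Snhg6, and the other 7 pairs did not overlap over the 3 libraries. In the kallisto-style tables Snhg6 moved up to stand between Snhg3 and Snhg20, and the overlapping pairs were Snhg5 with Snhg3 and Snhg15 with Snhg8.

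**Figure D3:**
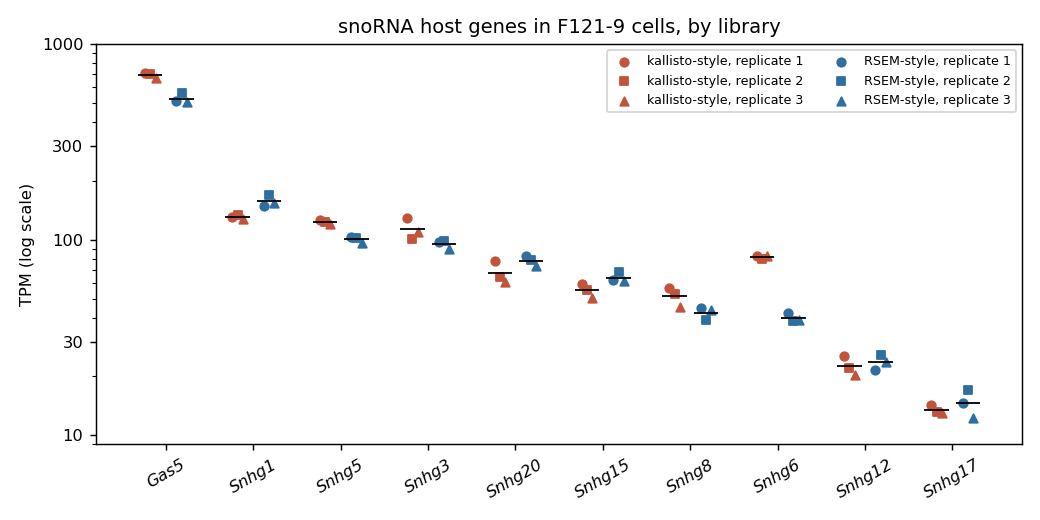
TPM (log scale) of each host in each of the 3 libraries, kallisto-style in red and RSEM-style in blue, with symbols for replicates and a black line for the mean of 3. Gas5 is the highest in both tables, at 693 and 526 TPM, and Snhg6 shows the widest gap between the tables, at 81.5 and 39.8 TPM.

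The spread of the hosts between libraries was tested in the RSEM-style counts. In edgeR's quasi-likelihood fit, 0 of 10 hosts had a dispersion beyond the trend, against 5 of 13391 genes tested (0.0373%), with Benjamini-Hochberg adjusted p from 0.987 to 0.999; at an unadjusted p under 0.05, 610 genes and 0 hosts passed. A chi-square test against counting noise called 0 of 10 hosts, against 1656 genes (12.4%), and 27 genes when replicate 1 was left out. At an unadjusted p under 0.05, 3167 genes and 1 host, Gas5, passed, and with DESeq2 size factors both tests again called 0 hosts. Gas5 had the lowest p, 0.0159 (adjusted p = 0.0978), at 158, 168 and 152 CPM (counts scaled to the library size). With kallisto-style counts 2 hosts passed this test, a share near the 17.6% of all 15934 genes tested there: Gas5 (adjusted p = 0.0321, with a range of 0.0321 to 0.615 over all settings tried) and Snhg20 (adjusted p = 0.0489, range 0.0489 to 0.938). Between replicate 1 and the mean of the other libraries the hosts differed by −0.08 (Snhg1) to 0.18 (Snhg6) on the log2(CPM + 1) scale, beside a median of 0.00 over all genes tested.

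Other genes of the snoRNA pathway gave the hosts' surroundings, with RSEM-style levels here and below unless stated. Of 12 other noncoding hosts sought 9 were matched by symbol, and 8 of these were expressed at a median of 21.3 TPM over the 9, with Rian at 115, Zfas1 at 88.95 and Epb41l4aos at 64.1 TPM, and Snhg18 lowest at 0.35 TPM. This order depends on the table. Kallisto-style, Snhg14 had 203 TPM, against 21.25 TPM RSEM-style, and stood with Zfas1 (143 TPM) above Rian (102 TPM). All 36 protein-coding snoRNA hosts were expressed, at a median of 668 TPM. The ribosomal protein genes Rpl23a, at 2623 TPM, and Rpl3, at 2529 TPM, were among the highest, and Tnpo2 was the lowest at 52.5 TPM.

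All 11 genes for box C/D snoRNP proteins were expressed, at a median of 157 TPM. The core proteins Nop58, Nop56 and Fbl, the methyltransferase, had 409.5, 361 and 312 TPM, and the assembly factor Nufip1 was the lowest at 24.4 TPM. The 6 genes for box H/ACA proteins had a median of 209.5 TPM, with Nhp2 at 449.5, Dkc1, the pseudouridine synthase, at 282 and Gar1 at 219 TPM, and the assembly factor Naf1 at 7.39 TPM. All 15 nonsense-mediated decay genes were expressed, at a median of 38.6 TPM, led by the exon junction genes Rbm8a at 227, Eif4a3 at 214 and Magoh at 124 TPM, with Smg8 lowest at 11.4 TPM. Of 8 long noncoding genes with no snoRNA host role, 6 were expressed, at a median of 11.6 TPM over the 8, with Tug1 at 325, Meg3 at 92.9 and Neat1 at 20.4 TPM, and Xist lowest at 0.263 TPM. Among these Ftx had 184 TPM kallisto-style, against 1.60 TPM RSEM-style.

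The snoRNAs themselves were hardly seen in these tables. Of the 34 entries, 30 had 0 RSEM-style counts in all 3 libraries, and 24 had 0 kallisto-style counts in all 3. For 22 of the 34 the RSEM-style table gave an effective length of 0, so that a 0 there measures nothing. The same length of 0 was given in replicate 1 for 538 of all 1558 annotated snoRNA and scaRNA genes. Across the annotation 7 of 1558 snoRNA and scaRNA genes had at least 1 TPM in all libraries in the RSEM-style tables, and 81 in the kallisto-style ones. Where an effective length above 0 was given, a 0 leaves room for 3 counts at most, which is 0.288 to 0.313 CPM, counting error alone being covered. For the host entries at 0 in all 3 libraries such a length was only 3.46 to 5.46 nt in replicate 1. A 0 there says little of the snoRNA either.

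Of the entries in these hosts, 3 had RSEM-style counts in every library. Snora73b had 20, 10 and 14 counts and 70.3, 37.1 and 50.1 TPM, on an effective length of 37.2 nt. Its copy Snora73a had 1.37, 3.69 and 1.48 estimated counts, and the assignment between the copies shown above is uncertain. The kallisto-style tables gave 24.7, 16.9 and 21.3 TPM for Snora73b and 9.13, 7.10 and 6.21 TPM for Snora73a. The scaRNA Gm26083 in Snhg20 had 0.9, 1.38 and 2.32 estimated RSEM-style counts, under the floor of 3 in every library. Kallisto-style it had 4.71, 4.13 and 5.36 counts, above that floor in every library. Snord87 in Snhg6 had 0 RSEM-style counts, on an effective length of 0, but 4, 5 and 1 kallisto-style counts. Snord22 had 0.67 estimated counts in replicate 1 and 0 in the other libraries. On an effective length of 2.81 nt those 0.67 counts were listed as 30.96 TPM.

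The host transcripts were dominated by 1 isoform in most genes. The annotation lists 92 isoforms for the 10 hosts, and 21 of them reached a mean share of 10% of the gene's TPM in either set of tables. The largest isoform was the same in both sets for 9 of 10 hosts. Snhg8-201 held 97.1 ± 0.408% of the gene's TPM in the kallisto-style tables and 94.5 ± 3.28% in the RSEM-style ones. Snhg20-202 held 93.3 ± 2.19% kallisto-style and 93.4 ± 1.24% RSEM-style, and Snhg1-211 held 85.7 ± 1.39% and 81.6 ± 2.37% in the same order. Single isoforms also led Snhg3 (Snhg3-204, 79.7 ± 2.34% kallisto-style and 89.3 ± 1.95% RSEM-style), Snhg15 (Snhg15-204, 78.8 ± 1.05% and 81.8 ± 4.27%) and Snhg12 (Snhg12-206, 69.8 ± 15.9% and 73.7 ± 7.69%).

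Other hosts were split. Snhg6-203 held 65.4 ± 3.17% kallisto-style and 63.1 ± 2.65% RSEM-style, followed by Snhg6-204 at 23.7 ± 3.88% and 22.1 ± 5.40%, with Snhg6-205 at 8.31 ± 1.59% and 14.3 ± 3.74%. For Snhg5, Snhg5-202 held 54.4 ± 2.22% and 58.8 ± 1.11%, Snhg5-201 held 20.7 ± 2.78% and 29.1 ± 0.944%, and Snhg5-203 held 18.9 ± 5.56% and 3.19 ± 2.77%. The leading isoform of Snhg17 by mean share, Snhg17-201, held 26.9 ± 4.60% kallisto-style and 27.6 ± 3.45% RSEM-style, ahead of the single-exon Snhg17-209 with 21.3 ± 3.83% and 20.3 ± 4.68%. By estimated counts Snhg17-209 led instead, with 40.8% kallisto-style and 37.4% RSEM-style. Snhg17-205 was the least steady isoform of this gene, listed at 31.6% in replicate 2 and 0% in replicate 3 of the RSEM-style tables, and Snhg17-207 held 9.83 ± 3.12% kallisto-style and 11.1 ± 1.60% RSEM-style. Shares of 10.8 ± 1.53% for Snhg3-203, 11.1 ± 1.94% for Snhg15-201 and 15.3 ± 14.8% for Snhg12-202 were reached in the kallisto-style tables, against 1.82 ± 0.676%, 6.74 ± 6.20% and 9.46 ± 10.8% in the RSEM-style ones.

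**Figure D4:**
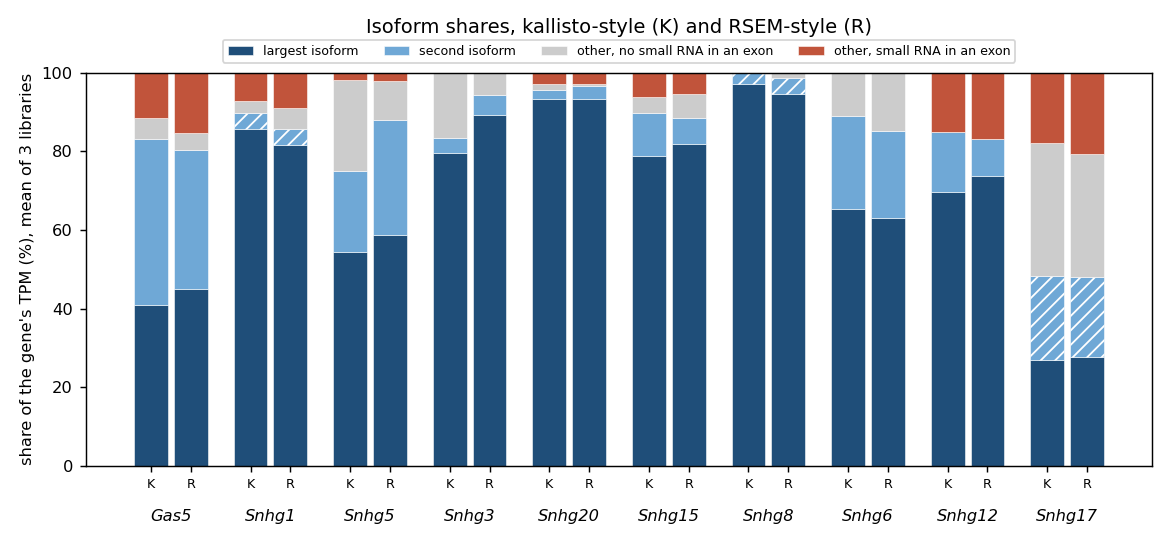
Share of each host's TPM (%, mean of 3 libraries) by isoform, kallisto-style (K) left and RSEM-style (R) right, stacked as the largest isoform by RSEM-style share, the second, and the others without (grey) or with (red) a small RNA inside an exon; hatching marks a second isoform that holds one. Snhg8, Snhg20 and Snhg1 consist mostly of 1 isoform, and Gas5 and Snhg17 are divided.

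Gas5 was the host whose largest isoform differed between the tables. Gas5-210 held 38.2%, 40.5% and 44.1% of Gas5 TPM in replicates 1, 2 and 3 of the kallisto-style tables, against 39.4%, 46.5% and 49.0% in the RSEM-style tables. Gas5-224 held 41.7%, 42.9% and 41.7% kallisto-style and 36.3%, 33.8% and 36.1% RSEM-style. Gas5-210 thus led in every RSEM-style table and, of the kallisto-style ones, in replicate 3. By estimated counts Gas5-210 led both sets, with 37.8% kallisto-style and 39.6% RSEM-style.

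Both Gas5 isoforms share 10 exons. Gas5-224 has 12 exons and Gas5-210 has 11; Gas5-224 adds an exon of 41 nt (chr1:161037124-161037164) after Snord78, and its first exon starts 96 nt later. In Gas5-210 the end of Snord78 lies 238 nt from the next exon, outside the 60 to 90 nt window, whereas it lies 74 nt from the added exon. Isoforms with that exon made up 42.4 ± 0.491% of Gas5 TPM kallisto-style and 36.0 ± 1.87% RSEM-style. The stretch is shown from GENCODE M21, GRCm38, with Snord78 and the added exon in capitals and the 74 nt between them in lower case.

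Gas5, Snord78 to the added exon (chr1:161036984-161037164, plus strand): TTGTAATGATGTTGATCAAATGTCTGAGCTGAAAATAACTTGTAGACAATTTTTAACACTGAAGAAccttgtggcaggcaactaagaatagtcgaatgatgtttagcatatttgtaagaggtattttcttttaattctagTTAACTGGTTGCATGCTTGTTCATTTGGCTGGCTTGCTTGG

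Isoforms annotated as retaining an intron numbered 40 of the 92 and occurred in 5 hosts. Gas5 had 17.8%, 14.3% and 11.8% of its TPM in them in replicates 1, 2 and 3 of the kallisto-style tables, and 23.6%, 18.4% and 13.7% in the RSEM-style tables. Snhg17 had 17.9 ± 4.22% kallisto-style and 20.6 ± 2.37% RSEM-style, Snhg1 had 13.3 ± 1.03% and 16.2 ± 2.52%, Snhg5 had 5.98 ± 2.25% and 8.85 ± 3.05%, and Snhg8 had 2.86 ± 0.408% and 4.30 ± 1.71%. Replicate 1 was the highest library in 3 of the 5 hosts kallisto-style and in 4 of the 5 RSEM-style. Without replicate 1 the Gas5 share was 13.1% kallisto-style and 16.1% RSEM-style, and that of Snhg5 was 4.69% and 7.09%. The part that the length trend of replicate 1 has in these shares was not tested. As shares of estimated counts, which weight long isoforms more, the RSEM-style values were 33.5% for Gas5, 35.0% for Snhg1 and 34.7% for Snhg17.

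A related share was taken after the data had been seen: TPM in the 44 isoforms with a whole annotated small RNA inside an exon, which 8 hosts have. Snhg17 was the highest, with 39.3 ± 6.43% kallisto-style and 40.8 ± 6.75% RSEM-style, and Snhg12 followed with 14.9 ± 2.20% and 16.9 ± 4.08%. In Gas5 the share was 11.4 ± 2.33% kallisto-style and 15.4 ± 4.09% RSEM-style, and in Snhg1 it was 11.1 ± 1.31% and 13.0 ± 2.00%. Snhg15, Snhg8, Snhg20 and Snhg5 were between 1.85% and 6.22% in both sets, and Snhg3 and Snhg6 have no such isoform. Without replicate 1 the Snhg5 share was 0.873% kallisto-style and 0.815% RSEM-style, against 1.85% and 2.01% with it. A read inside such an isoform can come from a spliced-out intron, an unspliced transcript or the snoRNA itself, and these cannot be told apart here.

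The same libraries were quantified in both sets of tables, so the level of a host depends on the table. On the log2(TPM + 1) scale, limma with the library as a block called 1932 of 14738 genes different between the tables (13.1%) at an adjusted p under 0.05 and a difference of at least 1. Of the 10 hosts 1 was called, Snhg6, which was higher in the kallisto-style tables, as were 10.7% of all genes tested. Snhg6 had 82.25, 79.6 and 82.7 TPM in the kallisto-style tables, against 42.15, 38.35 and 39.0 TPM in the RSEM-style tables of replicates 1, 2 and 3. The ranges are far apart, and the difference was 1.02 ± 0.05 (SE; limma adjusted p = 1.74e-04, higher in 3 of 3 libraries), on a scale that slightly understates folds. Without replicate 3 it was 0.99 (limma adjusted p = 2.88e-05), just under the minimum difference, so the call ended; over all settings tried the adjusted p of Snhg6 ran from 6.65e-07 to 0.00736. Snhg6 had 434, 412 and 449 kallisto-style counts, 4.77 ± 0.558 times the RSEM-style counts, beside 1.81 ± 0.00548 over all gene rows. The mean ratios of the other hosts also exceeded that of all gene rows, from 1.905 (Snhg1 and Snhg17) to 3.03 (Snhg8). These p-values compare 2 ways of counting the same reads and say nothing of the cells.

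The other 9 hosts differed by less than 1 and parted by direction, beside a median of −0.25 over all genes tested. Gas5 was higher kallisto-style by 0.40 (limma adjusted p = 0.00356), Snhg5 by 0.29 (0.00503), Snhg8 by 0.28 (0.0396) and Snhg3 by 0.23 (0.056). Snhg1 differed by −0.26 (limma adjusted p = 0.011), Snhg15 by −0.21 (0.0385), Snhg20 by −0.21 (0.0292), Snhg17 by −0.10 (0.382) and Snhg12 by −0.06 (0.609). With no minimum difference 7 hosts passed at an adjusted p under 0.05, a share near the 78.1% of all genes that passed. By direction, 4 hosts were higher kallisto-style, beside 16.4% of all genes, and 3 were higher RSEM-style, beside 61.7% of all genes. Gas5 had 712, 700.2 and 668 TPM kallisto-style, above every RSEM-style value, while Snhg1 had 131, 134 and 127.5 TPM kallisto-style, below every RSEM-style value.

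**Figure D5:**
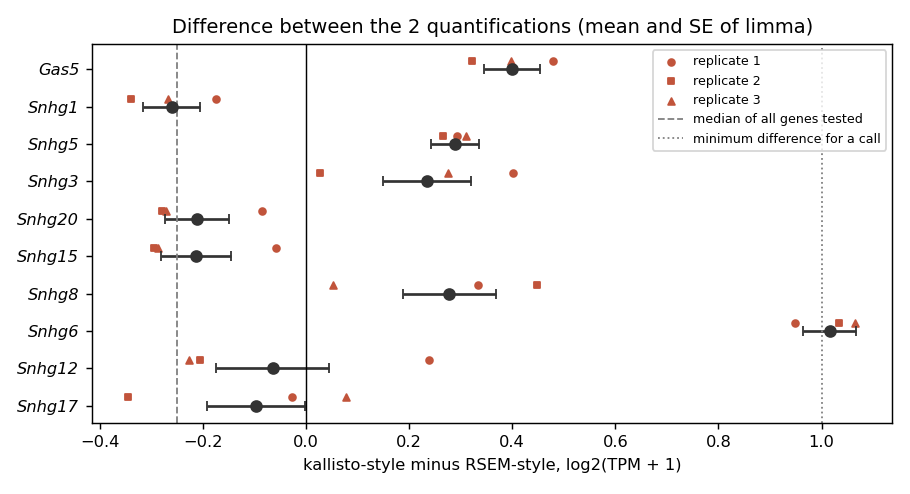
Kallisto-style minus RSEM-style level of each host on the log2(TPM + 1) scale: black points and bars give limma's mean and SE, red symbols the 3 libraries, the dashed line the median of all genes (−0.25) and the dotted line the minimum difference of 1. Snhg6 lies at 1.02, and the other hosts lie between −0.26 and 0.40.

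By isoform, 5473 of 28549 transcripts differed between the tables by the same rule (19.2%). Of the 92 host isoforms 48 were tested, 6 of them through their kallisto-style level alone and 3 through their RSEM-style level alone. Of the 48, 9 were called, a share near the 19.2% of all transcripts. Higher kallisto-style were 8 of the 48, beside 12.3% of all transcripts, and higher RSEM-style 1, beside 6.89%. Among the called, Snhg5-203, Snhg3-201 and Gas5-209 had been tested through their kallisto-style level alone, and Gas5-207 through its RSEM-style level alone. For these the filter favoured the direction found, so their p-values below are not independent support for it. With no minimum difference 21 host isoforms passed, beside 63.0% of all transcripts. Both leading Snhg6 isoforms were among them, Snhg6-203 by 1.06 (limma adjusted p = 0.00173) and Snhg6-204 by 1.06 (0.00324), which without replicate 1 fell below the minimum difference, at 0.99. Snhg3-203 differed by 2.27 (limma adjusted p = 0.00282) and Snhg5-203 by 2.88 (0.0140), whose call ended with a pseudocount of 0.1 (adjusted p = 0.0756) and without the filter on low values (0.055). Snhg3-201 had 2.57, 1.18 and 2.46 TPM kallisto-style and was listed at 0 in every RSEM-style table, so the size of its difference is set by the pseudocount (limma adjusted p = 0.00768). The minor Gas5 isoforms Gas5-209, Gas5-217 and Gas5-213 differed by 1.15 to 1.69, and Gas5-209 lost its call without the filter (limma adjusted p = 0.0734) and without replicate 3 (0.06). Gas5-207, a retained-intron isoform, was the one lower kallisto-style, with 1.43, 0.579 and 0 TPM against 10.2, 3.14 and 2.43 TPM RSEM-style. Its difference was −1.79 (limma adjusted p = 0.00635), and −3.22 with a pseudocount of 0.1 (0.0261). The effective lengths also differed between the tables, with 328 nt kallisto-style and 270.4 nt RSEM-style for Snhg6-203, 305 and 246 nt for Snhg8-201, and 409 and 353 nt for Gas5-210.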

How the data were processed

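The deposited tables give estimated counts and TPM for each of 3 F121-9 libraries on mm10 with annotation M21, made from transcriptome alignments (RSEM-style) or from the reads (kallisto-style), per the notes deposited with the libraries. For the quantifier, aligner, versions and use of strand, the sources used here name nothing. The authors' tables also hold bounds of each TPM, a signal on the TPM scale, and an isoform percent, which was not used; shares were computed from TPM. Counts were rounded to whole numbers, and spike-in and tRNA rows, 1.75% to 1.97% of counts, were left out of tests. Spread was tested with edgeR 4.0.16 (filterByExpr, TMM, intercept-only quasi-likelihood fit), and against Poisson noise by chi-square; DESeq2 1.42.0 size factors were an alternative. The tables were compared with limma 3.58.1 (R 4.3.3) on log2(TPM + 1) among features of at least 1 TPM in all libraries of either table; each library is a block because both tables come from its reads. Benjamini-Hochberg adjustment ran over all features tested, at 0.05, and the scripts were tested on simulated data. The rule names genes by symbol, but the genes and lists were chosen with earlier results of these data known. Named were the 10 hosts, isoforms of at least 10% share, snoRNAs inside the hosts, and the 3 highest genes and the lowest of each list, 1 of which is not reported here; isoforms differing between the tables, and other genes overlapping a host, were named after their values were seen. Depth was 75 to 1654 RSEM-style counts per host and library.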

Additional observations from a re-analysis of the deposited data

How the results depend on the processing

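All 10 hosts stayed expressed at minimums of 0.5 and 5 TPM, kallisto-style, and without each replicate. By RSEM-style mean, 8 hosts moved by more than their SD between tables, 8 with the deposited posterior mean TPM (467 against 526 TPM for Gas5) and 3 on rescaling without spike-ins. Genes with a dispersion beyond the trend numbered 34 without the filter on low counts, 16 with kallisto-style counts, and 7 to 14 with a replicate left out, with 0 hosts in each. The test against counting noise called 2800 genes, 2 hosts among them, from kallisto-style counts. Leaving out single replicates it called 27 (replicate 1) to 1471 genes. Without a minimum difference, 11507 genes and 7 hosts, and 17986 transcripts and 21 host isoforms, differed between the tables. With a replicate left out, hosts called there numbered 0 to 1, 0 being without replicate 3. With no replicate block 1911 genes, 5217 transcripts, 1 host and 9 host isoforms were called. The cause of these shifts was not tested. By estimated counts 10 of 10 hosts had the same main isoform in both sets, though the leading isoform itself changed for Snhg17 in both sets and for Gas5 kallisto-style. A replicate left out changed the called host isoforms to 9 to 11. Depth leaves hosts of under 100 counts, Snhg8 and Snhg12 among them, with wide counting error.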
